A study of Mus musculus with 6 samples.

Results

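Transcript levels of 9 genes of iron handling were followed in endothelial cells sorted from 4T1 tumours, out of 49315 gene IDs counted. The genes are transferrin (Trf), the transferrin receptor (Tfrc), the divalent metal transporter (Slc11a2), the ferritin heavy and light chains (Fth1 and Ftl1), ferroportin (Slc40a1), ceruloplasmin (Cp), hephaestin (Heph) and iron regulatory protein 2 (Ireb2). The group was selected on the measured level of Cp, which differed between the sorted fractions in these same libraries, so the difference in Cp is described here without a test. The other 8 were added for their known roles in iron metabolism, and all 9 passed the filter on low counts.

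4T1 is a transplantable mouse mammary carcinoma line. The host animals were female Balb/c mice aged 10 weeks, and tumours had grown in the inguinal fat pad for 2 weeks. Every mouse was given 1E12 gold nanoparticles by tail vein, 50 nm in diameter and carrying 5 kDa polyethylene glycol and the dye Cy5, and its tumour was taken 1 hour later. Cells were depleted of CD45+ leukocytes, selected for the endothelial surface protein CD31 and sorted into a fraction positive for nanoparticles (NP+) and a negative one (NP-). One library of each fraction came from each of 3 animals' tumours, labelled MET-106 to MET-108, and both fractions therefore come from injected animals. The comparison asks which transcripts differ between tumour endothelial cells that held nanoparticles and those that did not.

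Cells take up iron as ferric transferrin through the transferrin receptor, and the metal leaves the endosome through the divalent metal transporter. Spare iron is kept inside ferritin shells built of heavy chains, which oxidise iron, and light chains, which help it mineralise. Ferroportin is the known cellular exporter of iron, and the copper enzymes ceruloplasmin and hephaestin oxidise the exported ferrous iron so that transferrin can carry it. In iron-poor cells, iron regulatory proteins bind short hairpins in mRNAs, the iron-responsive elements. Binding before the coding sequence blocks translation, as in ferritin, and binding after it protects the mRNA from decay, as in Tfrc.

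Iron-responsive elements are printed here because they mark which of the 9 mRNAs are open to this control in the GENCODE mouse release 21 models (build GRCm38). The search took the sense strand only and asked for CNNNNNCAGTGNNNNNN, with the last loop base A, C or T and the 5 bases on either side of the loop able to pair, G with T included. A bulged form, with 1 extra unpaired base on the 3′ side, was searched as well. Capitals mark the loop of 6 bases, each sequence runs 5′ to 3′, and all 8 matches in the 9 genes are shown.
Fth1, 5′ UTR, chr19:9982733-9982759, plus strand: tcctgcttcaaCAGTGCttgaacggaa
Ftl1, 5′ UTR, chr7:45459780-45459806, minus strand: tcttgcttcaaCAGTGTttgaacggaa
Slc40a1, 5′ UTR, chr1:45925466-45925492, minus strand: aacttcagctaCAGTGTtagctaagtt
Slc11a2, 3′ UTR, bulged form, chr15:100395153-100395180, minus strand: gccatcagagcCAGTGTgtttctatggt
Tfrc, 3′ UTR, chr16:32631220-32631246, plus strand: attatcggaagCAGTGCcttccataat
Tfrc, 3′ UTR, chr16:32631599-32631625, plus strand: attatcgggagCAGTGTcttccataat
Tfrc, 3′ UTR, chr16:32631664-32631690, plus strand: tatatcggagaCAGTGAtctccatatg
Tfrc, 3′ UTR, chr16:32631711-32631737, plus strand: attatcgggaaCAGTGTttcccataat

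The strict form was found in the 5′ UTR of 0.096% of genes with a 5′ UTR model (20 of 20824) and in the 3′ UTR of 0.464% (97 of 20903). The bulged form was found in 0.154% and 0.775%. Within Fth1 the match lies in 3 of 3 coding transcripts, within Ftl1 in 1 of 2, within Slc40a1 in 1 of 1, and within Slc11a2 and Tfrc in 1 of 2 each. These letters were not found in the UTR models of Cp, Heph, Trf and Ireb2. A match describes sequence only, and counts per gene do not separate transcripts with and without it.

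The libraries held 20856410 to 58089600 gene counts. Pan-endothelial markers were detected in every library (10 of 10 genes), with a summed level of 10632 to 12451 in NP+ and 7134 to 9984 in NP-, in CPM (counts scaled to library size). Pecam1, which encodes the sorting antigen CD31, averaged 3291 ± 500.2 CPM over the NP+ libraries and 2353 ± 449 over the NP- libraries (mean ± SD, n = 3). Ptprc, which encodes CD45, measured 4.48 ± 0.997 and 13.9 ± 10.4 CPM. The NP- libraries stood apart in different ways. That of MET-106 had fibroblast markers summing to 3820 CPM and epithelial and tumour markers to 582 CPM. In the other 5 libraries these sums were 15.9 to 146 CPM and 7.9 to 32.1 CPM. The NP- libraries of MET-107 and MET-108 correlated with every other library at 0.832 to 0.883 (log2 CPM across genes), whereas that of MET-106 reached 0.945 to 0.951 with the NP+ libraries. Olfactory receptor genes (1106), which endothelial cells are not known to use, had a mean density of 0.0321, 0.0977 and 0.0566 CPM per kilobase in NP+ and 0.0847, 0.421 and 0.333 in NP-. This density is taken as the background of a library. It was higher in NP- than in NP+ in every tumour, so a multiple of it can be lower in NP- even for genes well above it. Such multiples, printed below only for genes lower in NP+, therefore do not give the direction of a difference. The median receptor gene stood at 0.0077, 0.0678 and 0.0327 CPM per kilobase in NP+ and 0.0625, 0.261 and 0.0856 in NP-. Multiples of that median would differ. The set includes Olfr558, at 13.3, 6.44 and 10.5 CPM in NP- against 0.426 to 0.710 in NP+. At an unadjusted p below 0.05 in edgeR's quasi-likelihood test, 9 of 9 fibroblast markers and 7 of 8 mural markers were lower in NP+. The share of all genes was 15.4%. Of tested markers, 6 of 6 epithelial and tumour, 3 of 4 neutrophil, 3 of 4 mammary secretory and 4 of 9 macrophage ones were lower too. So were 3 of 6 lymphatic, 2 of 4 lymphocyte, 1 of 4 glial and 1 of 2 hepatocyte ones, and 0 platelet, erythroid, adipocyte or pan-endothelial ones. In such sorted material, fewer cells of a type and less RNA per cell cannot be told apart. The samples are 3 tumours. Except where the tumour is fitted as a block, p-values leave out this pairing and measure the spread between the libraries of a fraction. Levels are CPM as mean ± SD over 3 libraries, folds are written as log2 of NP+ over NP-, and library values are in the order MET-106, MET-107 and MET-108.

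After Benjamini-Hochberg adjustment of edgeR's quasi-likelihood test over 23989 genes, 0 of the 8 genes other than Cp passed 0.05, where 0.0292% of all genes did (0.0125% higher in NP+ and 0.0167% lower). Their adjusted p-values ran from 0.173 to 0.778, and DESeq2 and limma-voom also called 0 of the 8. Over all 23989 genes DESeq2 called 966 higher and 2365 lower, and limma-voom 12 and 6. In the authors' deposited table, by comparison, 0 of the 8 had an adjusted p below 0.05, where 13.2% of genes with one did. At an unadjusted p below 0.05, Slc11a2 and Ireb2 were higher in NP+ and Trf was lower, which is 3 of 8 genes against 23.4% of all genes. The same 3 genes had no overlap between the groups, which held for 28.9% of all genes. The unadjusted p stayed below 0.05 in 10 of 17 alternative settings for Trf, 11 for Slc11a2 and 6 for Ireb2. Leaving out 1 library took it above 0.05 for Trf with any NP+ library or NP- of MET-106, for Slc11a2 with NP+ of MET-106, and for Ireb2 with any library other than NP- of MET-108. The plot of the 9 genes by library shows these levels.

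**Figure D1:**
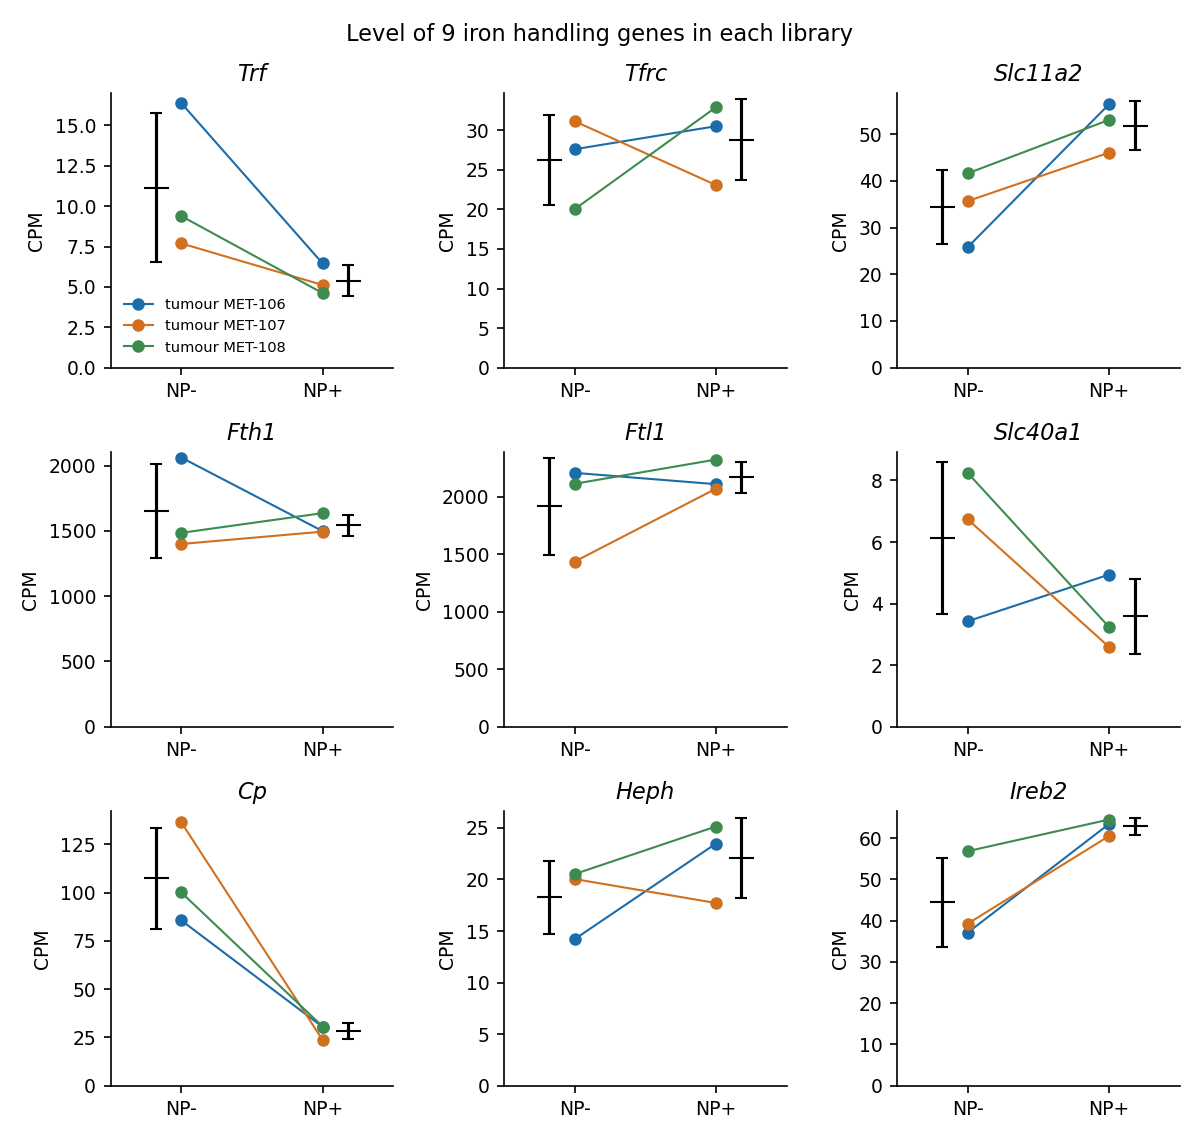
Levels of the 9 genes in each library (CPM, axes from 0), with 1 panel per gene, 1 point per library, lines joining the fractions of a tumour, and the mean ± SD of each fraction (n = 3). Cp lies at 23.7 to 30.7 CPM in NP+ and 85.6 to 136 CPM in NP-, whereas Tfrc, Fth1, Ftl1, Slc40a1 and Heph overlap between the groups.

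Of the uptake genes, Trf was lower and Slc11a2 higher in NP+ at an unadjusted p below 0.05, while Tfrc overlapped between the fractions. Trf (ENSMUSG00000032554, chr9:103204001-103230444) encodes the iron carrier of plasma. It measured 6.45, 5.12 and 4.62 CPM in the NP+ libraries and 16.4, 7.69 and 9.39 CPM in the NP- libraries. Every NP+ value lay below every NP- value, and NP+ was the lower fraction in 3 of 3 tumours. The means were 5.40 ± 0.949 and 11.2 ± 4.60 CPM, a log2 fold of -1.05 (SE 0.40), with an unadjusted p of 0.0276 and an adjusted p of 0.173 by edgeR. The highest value was in the NP- library of MET-106, the one with the most fibroblast and epithelial marker RNA, and the part of those cells in the result was not tested. Without that library the NP- mean was 1.58 times the NP+ mean rather than 2.07 times, and the log2 fold was -0.61 with an adjusted p of 0.265. Of its exonic bases, 63.5% are shared with the model Gm20425 on the same strand, so its count is uncertain. As a multiple of the background density Trf stood at 60.5, 15.8 and 24.6 in NP+ and 58.2, 5.50 and 8.49 in NP-. This quotient was higher in NP+ in 3 of 3 tumours, where the density itself was higher in NP-.

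Tfrc (ENSMUSG00000022797, chr16:32608920-32632794) encodes the receptor that carries transferrin into the cell. Its levels were 30.5, 23.1 and 32.9 CPM in NP+ against 27.6, 31.1 and 20.0 in NP-. The groups overlapped, with the NP+ library the lower of the pair in MET-107 alone. The log2 fold was 0.13 (SE 0.25), with an adjusted p of 0.754. Its sign depended on scaling: it was -0.18 with total-count scaling.

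Slc11a2 (ENSMUSG00000023030, chr15:100387898-100425072) encodes DMT1, which moves ferrous iron out of endosomes and across the plasma membrane. It measured 56.4, 46.0 and 53.1 CPM in NP+ against 25.8, 35.7 and 41.6 in NP-. All 3 NP+ values exceeded all 3 NP- values, and the smallest gap separated NP+ of MET-107 from NP- of MET-108. The NP+ mean of 51.8 ± 5.30 CPM was 1.51 times the NP- mean of 34.4 ± 7.98 CPM. The log2 fold was 0.59 (SE 0.23), with an unadjusted p of 0.0288 and an adjusted p of 0.176. Without the NP- library of MET-106 the fold was 0.48, with an adjusted p of 0.131, and with total-count scaling it was 0.29, with an adjusted p of 0.451. The authors' deposited table gives an adjusted p of 0.0685 for it, the lowest among the 8 genes. A model on the other strand, Gm5475, shares 6.33% of its exonic bases.

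Ferritin mRNAs were by far the most abundant of the 9 and overlapped between the fractions. Fth1 (ENSMUSG00000024661, chr19:9982703-9985092) measured 1498, 1494 and 1636 CPM in NP+ against 2062, 1400 and 1485 in NP-. The NP- library of MET-106 was the highest and both other NP- libraries lay below the NP+ range. The log2 fold was -0.10 (SE 0.20), with an adjusted p of 0.778, and it was 0.15 without that library. Ftl1 (ENSMUSG00000050708, chr7:45457944-45459884) measured 2108, 2069 and 2322 CPM in NP+ against 2207, 1435 and 2111 in NP-. The low NP- value of MET-107 set the group means apart, and the ranges overlapped. Its log2 fold was 0.18 (SE 0.21), with an adjusted p of 0.607, and it was -0.11 with total-count scaling.

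The heavy chain exceeded the light chain per kilobase of exon in every library. Of the exonic bases of Ftl1, however, 26.5% are shared with the model Gm10252 on the other strand and 8.13% with Gm22133 on the same strand. Reads there may have been left out of the count, so the order of the chains is uncertain. The Fth1 to Ftl1 ratio was 1.10, 1.12 and 1.09 in NP+ and 1.45, 1.51 and 1.09 in NP-. The NP- ratio of MET-108 lay just below the NP+ values, whereas both other NP- ratios lay above them. On the log2 scale the means were 0.14 ± 0.02 and 0.42 ± 0.26, and an exact two-sided permutation test gave p = 0.4, where the smallest p with 3 against 3 is 0.1. The difference of -0.28 became -0.42 without the NP- library of MET-108 (exact permutation p = 0.1). Together, Fth1 and Ftl1 took 0.334 ± 0.0188% of the gene counts of NP+ libraries and 0.391 ± 0.0652% of those of NP- libraries (p = 0.3 by the same exact permutation test). That difference of -0.057 percentage points was -0.024 without NP- of MET-106 and -0.090 without NP- of MET-107. Tfrc and Fth1 both carry iron-responsive elements, but the one in Fth1 acts on translation, which mRNA levels do not show. The log2 ratio of Tfrc to Fth1 averaged -8.59 ± 0.23 over NP+ and -8.81 ± 0.42 over NP- libraries (p = 0.4, exact permutation test). The difference of 0.22 moved to 0.094 without NP- of MET-106, 0.0995 without NP- of MET-108, 0.46 without NP- of MET-107 and 0.35 without NP+ of MET-107. Listed ferritin pseudogenes held few counts of their own, 0.0557% of the Fth1 level and 0.902% of the Ftl1 level in NP+, although reads of near-identical copies may have been left out or shared by the counting.

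Among the export genes, Slc40a1 and Heph overlapped between the fractions and Cp did not. Slc40a1 (ENSMUSG00000025993, chr1:45908068-45926523), which encodes ferroportin, was scarce, at 4.94, 2.59 and 3.24 CPM in NP+ against 3.43, 6.74 and 8.24 in NP-. The NP- libraries of MET-107 and MET-108 were the highest of the 6, but in MET-106 the NP+ library was the higher one. The log2 fold was -0.77 (SE 0.50), with an adjusted p of 0.356, and leaving out 1 library moved it between -1.01 (without NP- of MET-106, adjusted p of 0.152) and -0.47 (without NP- of MET-108). Without both libraries of MET-108 it was -0.30. Per kilobase Slc40a1 measured 0.748 and 0.916 CPM in the NP- libraries of MET-107 and MET-108, where the 90th percentile of olfactory receptor genes was 1.16 and 1.03. In the libraries that carry its difference, Slc40a1 therefore lay within the range of genes taken as background.

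Cp (ENSMUSG00000003617, chr3:19957054-20009145) encodes the multicopper ferroxidase of plasma, which cells also make in a form anchored to the membrane. It measured 30.4, 23.7 and 30.7 CPM in NP+ against 85.6, 136 and 100.1 in NP-. Counts behind these levels were 1109, 1300 and 1222 in NP+ and 4100, 3282 and 2977 in NP-. The lowest NP- library stood well above the highest NP+ library. The means were 28.3 ± 3.97 and 107.4 ± 26.2 CPM, and within tumours NP- was 2.81, 5.76 and 3.27 times NP+. By group means Cp in NP- was 3.80 times its NP+ level, and 4.19 times without the NP- library of MET-106. That library had the lowest Cp of the 3 NP- libraries and the highest fibroblast and epithelial sums. Hepatocyte markers summed to 0.4 to 0.9 CPM in NP+ and 1.5 to 6.4 CPM in NP-. Lymphatic endothelial markers (6 of 6 found) summed to 170, 990 and 415 CPM in NP-, in the same order as Cp, against 291 to 341 CPM in NP+. The NP- sum of MET-106 thus lay below every NP+ library, mostly through Flt4. Flt4 measured 70.2 CPM there against 191 to 203 CPM in NP+. Pdpn, at 13.5 CPM in that library, lay above its NP+ range of 2.63 to 7.78 CPM. Prox1, Lyve1 and Ccl21a lay within their NP+ ranges, and Reln just below its own. The place of that library therefore depends on the list member. Mural and macrophage sums were higher in all NP- libraries, at 104 to 799 and 41.7 to 121.5 CPM against 46.1 to 87.3 and 17.2 to 28.5 CPM in NP+. The part of these cells in the level of Cp was not tested. As a multiple of the background density Cp stood at 99.1, 25.3 and 56.6 in NP+ and 105.6, 33.9 and 31.4 in NP-. This quotient was higher in NP- in MET-106 and MET-107 and lower in MET-108, with the density itself higher in NP- in every tumour. Its direction depends on the use of the mean density. In NP- of MET-108 that mean was 0.333 CPM per kilobase, where the median receptor gene stood at 0.0856. The quotient therefore gives no direction for Cp.

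Heph (ENSMUSG00000031209, chrX:96455359-96574485) is the membrane-bound relative of Cp. It measured 23.5, 17.7 and 25.1 CPM in NP+ against 14.2, 20.0 and 20.5 in NP-. The ranges overlapped and the log2 fold was 0.28 (SE 0.26), with an adjusted p of 0.522. It was -0.03 with total-count scaling. Per kilobase the Cp to Heph ratio was 1.04, 1.07 and 0.977 in NP+ and 4.83, 5.45 and 3.91 in NP-. The oxidase mRNAs lay close to each other in every NP+ library, and Cp exceeded Heph in every NP- library. This ratio includes the value Cp was chosen for and was not tested.

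**Figure D2:**
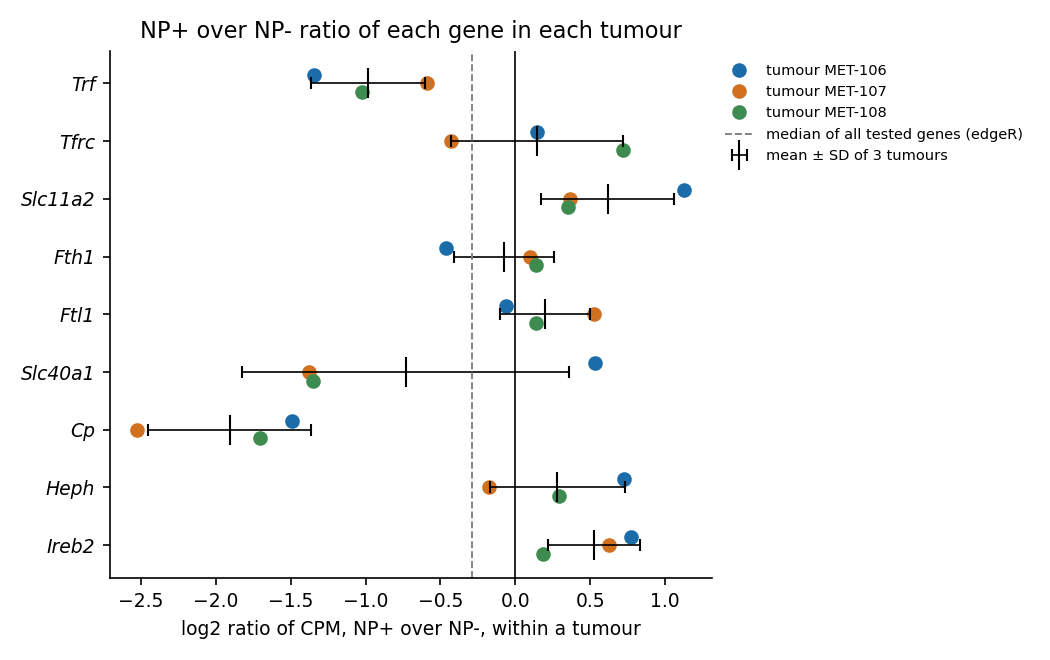
Within-tumour differences of the 9 genes, as log2 of NP+ over NP- (x axis), with 1 point per tumour and the mean ± SD of the 3 tumours. The dashed line marks the median over all genes tested, -0.29. Cp lies left of 0 in all 3 tumours, as does Trf, and Slc11a2 and Ireb2 lie right of 0 in all 3.

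Ireb2 (ENSMUSG00000032293, chr9:54863789-54912530) encodes iron regulatory protein 2, which binds iron-responsive elements and is degraded in iron-replete cells. It measured 63.4, 60.5 and 64.5 CPM in NP+ against 37.1, 39.2 and 56.8 in NP-. The NP+ libraries were tightly grouped above all NP- libraries, of which MET-108 came nearest. The NP+ mean of 62.8 ± 2.06 CPM was 1.41 times the NP- mean of 44.4 ± 10.8 CPM. The log2 fold was 0.50 (SE 0.21), with an unadjusted p of 0.0437 and an adjusted p of 0.202. With the tumour as a replicate block the unadjusted p was 0.0520. The fold was 0.44 without the NP- library of MET-106, with an adjusted p of 0.183, and 0.20 with total-count scaling.

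Aco1, which encodes iron regulatory protein 1 and serves as an aconitase when it holds an iron-sulfur cluster, averaged 61.6 ± 10.6 CPM over NP+ and 53.5 ± 12.8 over NP- libraries (adjusted p = 0.598 by edgeR). The Ireb2 to Aco1 ratio per kilobase was 0.419, 0.567 and 0.491 in NP+ and 0.359, 0.428 and 0.396 in NP-. It was higher in NP+ within 3 of 3 tumours, but the NP- value of MET-107 exceeded the NP+ value of MET-106. On the log2 scale the means were -1.03 ± 0.22 and -1.35 ± 0.13 (exact two-sided permutation p = 0.2). This test does not use the shared tumours, within which the difference was 0.31 ± 0.09 (SD, n = 3). It was 0.21 without NP+ of MET-107.

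Set against each other per kilobase of exon, the genes formed an upper tier of ferritin and a lower tier of the rest. In NP+ the order was Fth1 (1782 ± 93.2 CPM per kilobase), Ftl1, Slc11a2 (8.16), Ireb2 (6.62), Tfrc (4.66), Cp (2.95), Heph (2.89), Trf (1.63) and Slc40a1 (0.399). The ranges of Fth1 and Ftl1 overlapped there, as did those of Cp and Heph. In NP- Cp (11.2 ± 2.74 CPM per kilobase) followed Fth1 (1904 ± 416) and Ftl1 (1431 ± 314). Below it came Slc11a2 (5.41), Ireb2 (4.68), Tfrc (4.24), Trf (3.36) and Heph (2.38), each overlapping its neighbour in this order, and Slc40a1 (0.682). The place of Cp among the 9 was 6 in NP+ and 3 in NP-.

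**Figure D3:**
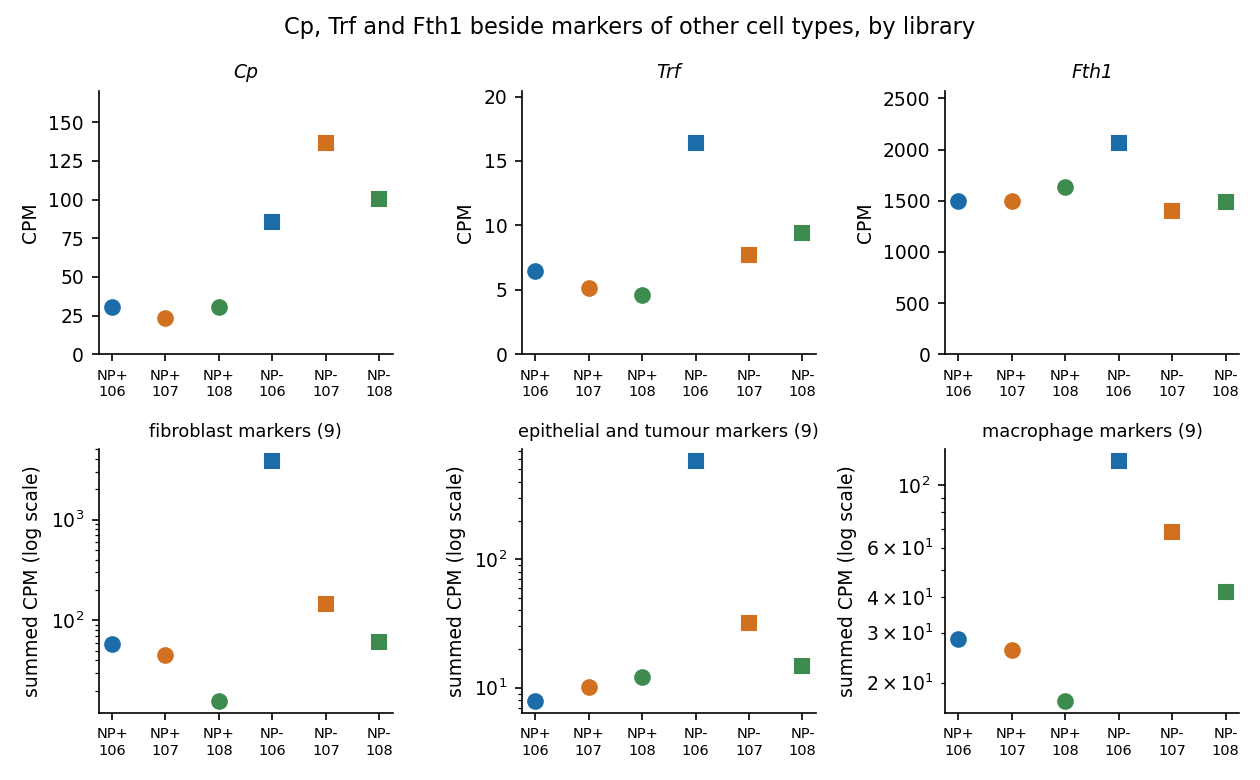
Levels of Cp, Trf and Fth1 (upper row, CPM from 0) above the summed levels of fibroblast, epithelial and tumour, and macrophage markers (lower row, CPM on log axes). Each point is 1 library, circles for NP+ and squares for NP-, coloured by tumour. The NP- library of MET-106 has 3820 CPM of fibroblast markers and the lowest Cp of the NP- libraries, at 85.6 CPM.

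The genes whose profile over the 6 libraries was most like that of Cp were Map3k5, a stress-responsive kinase, Sulf1, which trims heparan sulfate, Fhl1, Arap2 and Cped1. Likeness was the root mean square difference of centred log2 CPM, which was 0.109 for Map3k5, 0.189 for Sulf1, 0.222 for Fhl1, 0.254 for Arap2 and 0.273 for Cped1. The median over the 10816 genes compared was 1.15. Sulf1 measured 19.9 CPM in NP+ and 64.7 CPM in NP- on average, and Fhl1 13.6 and 54.9 CPM. Among the 7 other iron genes compared, which leave out Slc40a1 for its low level, Trf was the nearest to Cp, at 0.709 and rank 389. These likenesses are descriptions of 6 libraries and rest on the same contrast that brought Cp forward.

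The other genes of iron metabolism were taken from 7 lists with 94 genes, all 94 found and 89 tested. By edgeR 0 of the 89 passed after adjustment, and limma-voom also called 0. DESeq2 called 6 higher in NP+ and 8 lower, against 966 higher and 2365 lower among all 23989 genes tested. At an unadjusted p below 0.05, 9 of 89 were higher in NP+ (10.1%, against 8.01% of all genes) and 9 were lower (10.1%, against 15.4%). Groups did not overlap for 21 higher genes (23.6%, against 13.3%) and 9 lower ones (10.1%, against 15.6%). The median log2 fold was 0.19 over the lists and -0.29 over all genes tested. The all-gene median depended on the filter, at -0.019 with at least 5 CPM in 3 libraries and -0.69 with no filter. Of the 89 iron genes 68 passed the 5 CPM filter, and of the 23989 genes 10671 did. These comparisons with all genes are not matched for level. Counts shifted with single libraries: at the same unadjusted p, 24 of 90 tested were higher and 8 lower without the NP- library of MET-106 (12.3% and 22.4% of all genes in that setting). They were 14 and 14 of 89 without the NP- library of MET-108 (10.0% and 13.6% of all genes), and 5 of 90 were lower without the NP+ library of MET-108 (8.16% of all genes).

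**Figure D4:**
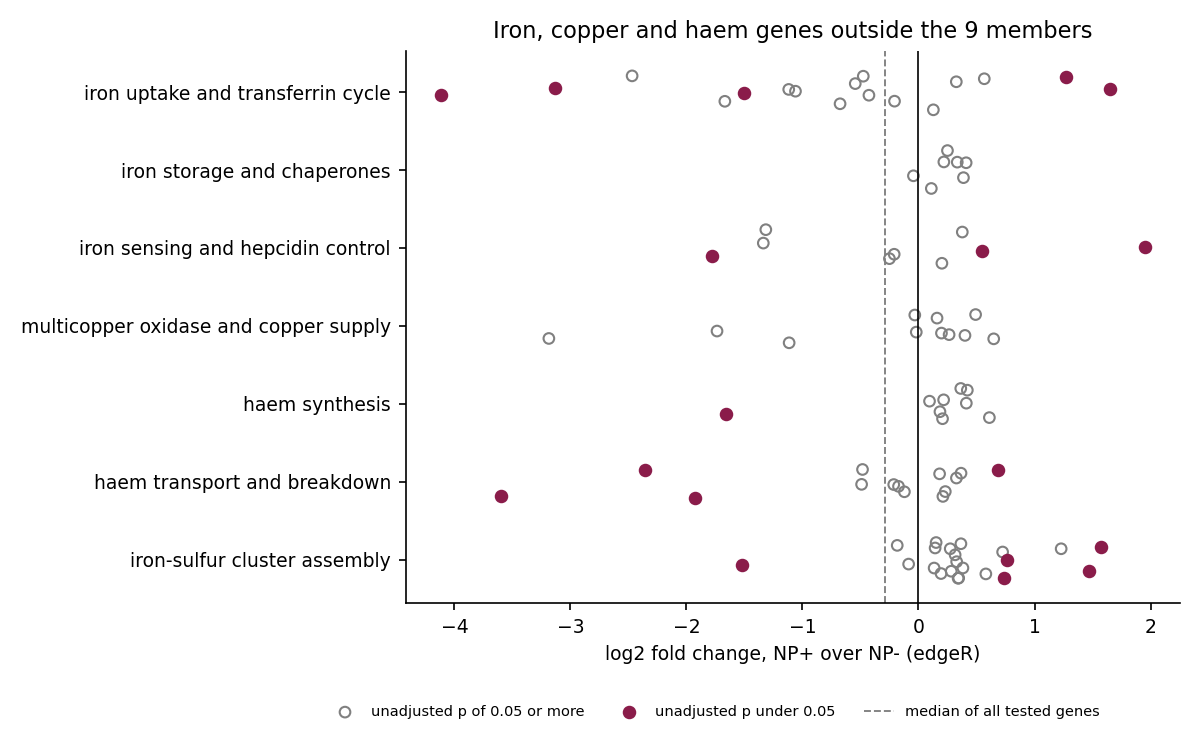
Log2 folds of NP+ over NP- (x axis) of the tested genes in the 7 iron lists, 1 row per list and 1 point per gene. Filled points have an unadjusted p below 0.05 (9 on each side of 0), and the dashed line at -0.29 is the median over all genes tested.

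Of the 17 genes of iron uptake and the transferrin cycle, 2 were higher and 3 lower in NP+ at an unadjusted p below 0.05. That is 29.4% of the list, against 23.4% of all genes. The median log2 fold of the list was -0.54. Lcn2, a secreted protein that binds iron-laden siderophores, averaged 11.1 ± 1.10 CPM over NP+ and 31.6 ± 13.1 over NP- libraries (adjusted p = 0.102 by edgeR). Slc22a17, reported as its receptor, ran the other way, at 13.9 ± 2.47 and 4.43 ± 1.22 CPM (adjusted p = 0.102 by edgeR). As a multiple of the background density Lcn2 stood at 123, 41.6 and 83.5 in NP+ and 103, 42.3 and 29.1 in NP-. That quotient was higher in NP- in MET-107 alone, with the density itself higher in NP- in every tumour. Ltf, the lactoferrin of neutrophil granules and secretions, lay at 0.741, 1.29 and 0.803 CPM in NP+ against 11.4, 37.0 and 1.21 in NP-. Neutrophil markers summed to 13.7, 94.1 and 3.73 CPM in the same NP- libraries, and their part in the Ltf values was not tested.

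Storage and copper supply held no gene at an unadjusted p below 0.05 (0 of 7 and 0 of 11 tested), against 23.4% of all genes. The iron chaperones Pcbp1 and Glrx3 and their partner Bola2 were higher in NP+ within 3 of 3 tumours and without overlap, as were 13.3% of all genes, and had unadjusted p-values of 0.0525, 0.0649 and 0.121. Pcbp1 measured 172 ± 12.3 and 132 ± 18.4 CPM (adjusted p = 0.218). Among copper genes, the importer Slc31a1 averaged 158 ± 3.58 CPM over NP+ and 119.8 ± 25.5 over NP- libraries, and Sco1, which delivers copper to cytochrome oxidase, 19.2 ± 2.21 and 12.3 ± 3.73 CPM. Sod3 stood at 51.7, 4.95 and 0 CPM in NP-, the highest in the library with the most fibroblast RNA. Hephl1, a further ferroxidase of the family, had low counts, averaging 0.744 ± 0.656 CPM over NP+ and 1.63 ± 0.977 over NP- libraries.

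Among 9 tested genes of iron sensing and hepcidin control, 2 were higher and 1 lower at an unadjusted p below 0.05. That is 33.3% of those tested, against 23.4% of all genes. Bmp2, a ligand that drives hepcidin expression in the liver, had the lowest adjusted p of the 89 (0.0681 by edgeR), at 109, 106.2 and 88.9 CPM in NP+ against 36.6, 26.8 and 15.4 in NP-. All NP+ values lay above all NP- values. Fbxl5, the iron-binding ubiquitin ligase subunit that marks iron regulatory protein 2 for degradation, measured 144 ± 11.6 and 98.7 ± 10.6 CPM (adjusted p = 0.144). Neo1, a receptor of hemojuvelin, was lower in NP+ at 2.80 ± 1.53 against 9.61 ± 1.61 CPM (adjusted p = 0.132). As a multiple of the background density it stood at 4.51, 5.07 and 5.70 in NP+ and 12.4, 3.10 and 2.85 in NP-. That quotient was lower in NP- in MET-107 and MET-108, with the density itself higher in NP- in every tumour.

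Of 22 genes of iron-sulfur cluster assembly, 4 were higher and 1 lower at an unadjusted p below 0.05, with a median log2 fold of 0.34. That is 22.7% of the list, against 23.4% of all genes. Glrx5, which passes clusters on in mitochondria, averaged 15.5 ± 2.30 CPM over NP+ and 5.60 ± 1.96 over NP- libraries (adjusted p = 0.119). Lyrm4, a subunit of the assembly complex, was lower in NP+, at 3.38 ± 0.465 and 9.74 ± 3.88 CPM (adjusted p = 0.135 by edgeR). Its multiples of the background density were 79.0, 19.7 and 39.5 in NP+ and 41.2, 18.2 and 24.5 in NP-. These were lower in NP- in every tumour, where the density itself was higher, so they do not give the direction of Lyrm4.

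Of 9 genes of haem synthesis, 0 were higher and 1 lower at an unadjusted p below 0.05 (11.1%, against 23.4% of all genes). Uros and Ppox were higher in NP+ without overlap, as were 13.3% of all genes, with adjusted p-values of 0.248 and 0.324 by edgeR. Of 14 genes of haem transport and breakdown, 1 was higher and 3 were lower (28.6%, against the same 23.4%). Slc48a1, which exports haem from lysosomes, averaged 56.4 ± 2.43 CPM over NP+ and 35.2 ± 10.6 over NP- libraries (adjusted p = 0.159). Lrp1, a receptor of haem-bound hemopexin, measured 2.31, 3.99 and 1.98 CPM in NP+ against 79.8, 15.2 and 5.58 in NP-. Its highest value was again in the NP- library of MET-106, and the part of fibroblast RNA was not tested. Its multiples of the background density were 53.2 there and 2.03 and 0.946 in the other NP- libraries, against 1.98 to 4.05 in NP+. Blvrb, a biliverdin reductase, measured 18.4 ± 0.398 and 25.8 ± 6.61 CPM (adjusted p = 0.276).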

How the data were processed

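The 6 libraries (3 NP+, 3 NP-) were made with SMART-Seq v4, which marks neither strand nor molecules, and sequenced as paired 150 base reads, per the labels' protocols. The authors deposited whole-number gene counts. Tools named in the submitters' processing notes are STAR 2.5.2b, Trimmomatic 0.036, Subread 1.5.2 (featureCounts) and DESeq2, and the build is GRCm38 (mm10). For strand, multi-mapped reads and the annotation release, settings were not given in the sources used here. The authors' deposited table gives a signal per library (count divided by a size factor), a log2 fold change of NP- over NP+, turned here, and p-values with adjusted p-values. Of 49315 IDs, 49014 had a symbol from the reference table or the deposited table.

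Counts were tested with edgeR 4.0.16 (R 4.3.3): TMM scaling, filterByExpr by group with a minimum count of 10, a quasi-likelihood test and Benjamini-Hochberg adjustment over 23989 genes at 0.05. The SE is the log2 fold divided by the square root of F. Libraries of 1 tumour share an animal, so the numbers pair the libraries. Deviations from group means of paired libraries correlated at 0.282, 0.214 and 0.0209. The tumour block, DESeq2 1.42.0, limma-voom 3.58.1, other scalings, other filters and each library or tumour left out were alternatives. Ratios were compared with exact permutation tests. CPM per kilobase uses the length of merged exons. Named iron genes are the 3 per list with the smallest unadjusted p at a mean of at least 5 CPM, plus Aco1 and Hephl1; Pecam1, Ptprc and the 5 genes most like Cp were named as well. The members and lists were chosen with earlier results of these data known. The values of some genes that this rule names are not reported here.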

Additional observations from a re-analysis of the deposited data

How the results depend on the processing

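Depth, 3 tumours and the spread among the NP- libraries limit these comparisons. Over all genes, edgeR called 3 higher and 4 lower in NP+. With the tumour as a replicate block 13 were lower. DESeq2 called 966 higher and 2365 lower, limma-voom 12 higher. Upper-quartile scaling gave 18 lower and total-count scaling 9 lower. No filter gave 525 and 686, and at least 5 CPM in 3 libraries 18 and 87. Leaving out 1 library gave 0 to 968 higher and 0 to 1352 lower, the highest without NP- MET-106, while without NP- MET-108 it was 113 and 177 and without each of the other 4 it was 0. Without both libraries of MET-106 or MET-107 it was 0 and 0, and without MET-108 0 and 1. The median log2 fold over all genes was -0.29 with TMM, -0.59 with total-count and -0.53 with upper-quartile scaling. It was -0.019 with the 5 CPM filter and -0.69 with no filter.

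Among the iron lists, calls after adjustment (0 and 0) became 6 higher and 8 lower with DESeq2, 5 and 3 with no filter, and 0 to 6 and 0 to 3 with 1 library left out (6 and 3 without NP- MET-106, 1 and 2 without NP- MET-108). Calls over all genes also rose in these settings, to the counts given above. At an unadjusted p below 0.05 (9 and 9), 5 were higher with upper-quartile scaling, with total-count scaling, with the 5 CPM filter and without MET-107. The shares of all genes higher in these settings were 3.27%, 2.54%, 6.44% and 4.81%. With no filter 15 of 94 were higher (6.43% of all genes). Without MET-106 26 of 88 were higher and 5 lower (12.04% and 15.23% of all genes). Without MET-108 4 of 89 were higher (4.31% of all genes). Leaving out 1 library gave 6 to 24 higher and 5 to 14 lower, where 3.89% to 12.3% of all genes were higher and 7.85% to 22.4% lower.

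The log2 fold of Cp was -1.93, -2.24 with total-count scaling, -2.21 with the 5 CPM filter and -1.61 without MET-107. Trf, Slc11a2 and Ireb2 kept their sign in 17 of 17 alternatives, and Slc40a1 in 16 of 16, whatever their p. Cp kept its sign as well, but it was chosen for that difference. The alternatives use the same libraries and are no independent check. Tfrc reversed to -0.11 under upper-quartile scaling, -0.18 under total-count scaling, -0.15 with the 5 CPM filter, -0.0019 without NP- MET-108 and -0.039 without MET-108. Fth1 reversed to 0.063 with no filter and 0.31 without MET-106, and leaving out 1 library moved it between -0.19 and 0.15 (0.02 without NP+ MET-106, 0.15 without NP- MET-106). Ftl1 reversed to -0.069 under upper-quartile scaling, -0.11 under total-count scaling and -0.086 with the 5 CPM filter. Heph reversed to -0.033 under total-count scaling and -0.0055 with the 5 CPM filter. The cause was not tested. The replicate block changed no call after adjustment among the 8 genes other than Cp.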
